A study of Mus musculus with 8 samples.

Results

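The genes described here encode the lysosomal proton pump (the V-ATPase), the acid hydrolases that work in the compartment it acidifies, proteins of the lysosomal membrane and lumen, and the transcription factors that control many of them. The list was given by gene name and held 39 genes, of which 38 had a probe set annotated to a single symbol, out of 18820 genes measured. The exception was Atp6v0c, the main proteolipid of the proton-conducting ring, which is not analysed here. Atp6v1f, Atp6v1g1 and Mitf had more than 1 probe set, and each was represented by whichever probe set had the highest mean across the 8 arrays.

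Expression was measured on 8 arrays of epididymal white adipose tissue, a visceral fat depot attached to the epididymis, from male C57BL/6 mice. The 4 wild-type arrays came from mice bought from the Jackson Laboratories. The 4 transgenic arrays came from IL-37 transgenic mice, which overexpress human interleukin-37 (an anti-inflammatory cytokine of the IL-1 family). All mice had a run-in of 2 weeks on a low-fat diet with 10% of energy from fat. They then had 16 weeks on a high-fat diet with 45%. The labels do not call the groups littermates, so the transgene and the origin of the mice cannot be told apart, and the promoter behind the transgene and the age of the mice are not given in the sources used here. Arrays carry replicate numbers but the labels do not tie each to its own mouse, so the p-values reflect only the spread between samples, which may be technical. The labels were not checked through the transgene, since 0 probe sets were annotated to it.

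Lysosomes digest material taken up from outside the cell and worn-out parts of the cell itself. The V-ATPase hydrolyses ATP in its cytosolic V1 domain and drives protons through its membrane V0 domain, and the hydrolases need the acid pH that results. In obese fat, macrophages gather around dying adipocytes and break down the released lipid in lysosomes, while adipocytes and all other cells of the tissue carry lysosomes of their own. TFEB, TFE3 and MITF, the MiT/TFE family of transcription factors, raise lysosomal genes together by binding an E-box in their promoters called the CLEAR element.

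All values are log2 expression levels as deposited. The median of an array was between 5.97 and 6.04, and Pearson correlations across genes were between 0.980 and 0.996 within groups. The tissue label was checked against its markers. The mean of 8 measured adipocyte markers was 11.87 to 12.01 in wild-type and 12.06 to 12.14 in transgenic arrays, and the mean of 4 epididymal epithelium markers was 3.60 to 4.30 over all arrays, where the 25th percentile of gene means was 4.49. Of these 4, Adam7, named after its values were seen, reached 4.77 and 5.17 in wild-type replicates 3 and 4 and was 3.41 to 4.13 in the other arrays. The mean of 12 macrophage markers was 9.29 to 10.09 in wild-type and 9.02 to 9.37 in transgenic arrays. Of these 12, Fcgr1 and Cx3cr1 fell in transgenic fat (limma adjusted p = 0.0469 and 0.0231), where 1.27% of all genes fell. Among 8 measured markers of lipid-associated macrophages, Trem2 fell (limma adjusted p = 0.0454). The mean of these 8 was 9.68 to 10.93 in wild-type and 8.82 to 9.76 in transgenic arrays. Calls of marker genes were not followed through removal of arrays or the other alternatives. Adgre1, which encodes the macrophage antigen F4/80, differed by -0.79 (adjusted p = 0.163) and Csf1r, the receptor for macrophage colony-stimulating factor, by -0.32 (adjusted p = 0.271). All 12 macrophage markers were measured well above that percentile, the dimmest being Cx3cr1 with group means of 7.08 and 6.44. Wild-type replicate 3 stood apart from the other wild-type arrays, with a macrophage mean of 9.29 inside the transgenic range.

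RNA for the catalytic core of the pump was lower in the transgenic fat, at 1.41-fold for Atp6v1a and 1.34-fold for Atp6v1b2, and so was RNA for the lysosomal tetraspanin Cd63 (1.35-fold) and for progranulin, Grn (1.33-fold). These 4 genes of 38, or 10.5%, fell by limma at a Benjamini-Hochberg adjusted p of at most 0.05 over all genes, where 1.27% of all genes tested fell. 0 of 38 rose, where 2.07% of all genes did. At an unadjusted p of 0.05, 20 of 38 were lower and 0 higher, against 9.42% and 11.2% of all genes. Across the list 32 of 38 differences were below 0 (44.7% for all genes), and the median difference, transgenic minus wild type, was -0.24 log2 units where that of all genes was 0.02. The 2 groups did not overlap for 11 of the 38, all lower in transgenic fat, where 5.73% of all genes tested were lower and 8.24% higher without overlap. The 4 calls were close to the threshold: after centring of each array on its median their adjusted p ran from 0.0573 to 0.0751, and with the replicate number as a block from 0.0897 to 0.142, so none passed. In bulk tissue, fewer cells of a type and less RNA per cell cannot be told apart.

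**Figure D1:**
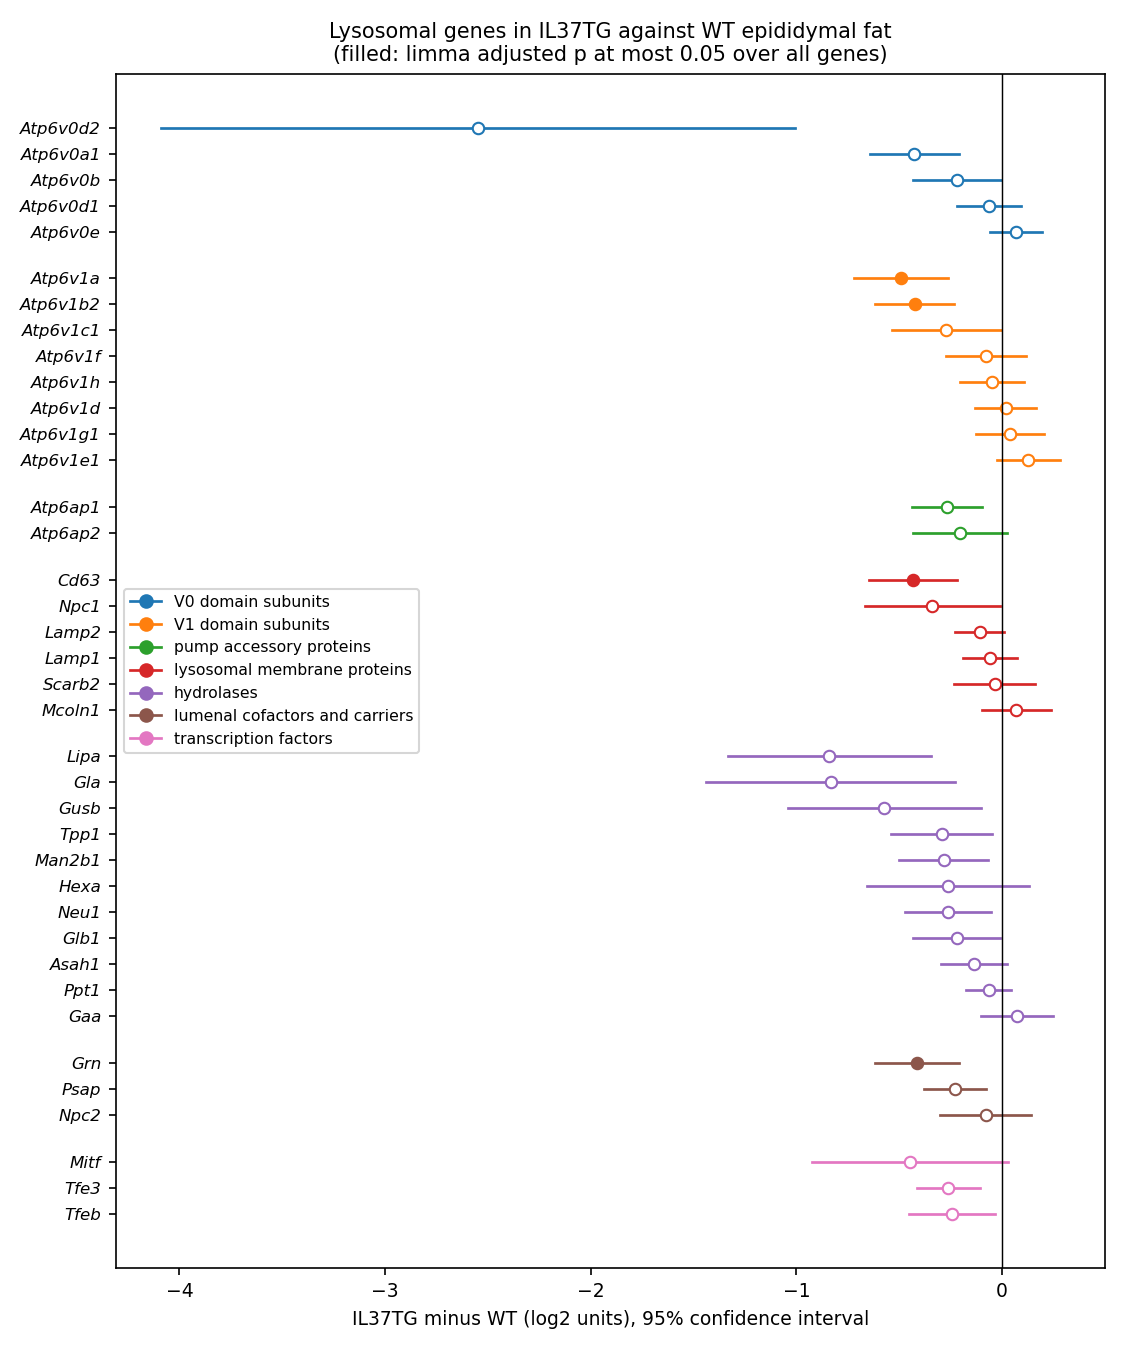
Difference between 4 IL-37 transgenic and 4 wild-type arrays for each of the 38 measured genes, in log2 units with the limma 95% confidence interval, grouped and coloured by role; filled points passed the adjusted threshold over all genes. Most points lie left of 0, Atp6v0d2 lies farthest at -2.55 with the widest interval, and the filled points are Atp6v1a, Atp6v1b2, Cd63 and Grn.

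The pump itself was measured through 15 subunits and accessory proteins. In the V1 domain, Atp6v1a, the catalytic A subunit that hydrolyses ATP, measured 10.65, 10.69, 10.27 and 10.46 in wild-type replicates 1 to 4 and 10.07, 10.09, 10.03 and 9.91 in transgenic replicates 1 to 4. Every wild-type array lay above every transgenic one, with wild-type replicate 3 the nearest (difference -0.49, SE 0.10, limma adjusted p = 0.0431). Atp6v1b2, the B subunit that forms the ATP-binding ring with A, read 11.63, 11.65, 11.32 and 11.49 in wild-type and 11.15, 11.15, 11.09 and 11.00 in transgenic fat. It separated in the same way (difference -0.43, SE 0.08, limma adjusted p = 0.0412). Both calls were lost on removal of any 1 array other than wild-type replicate 3, with adjusted p up to 0.123 and 0.120.

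The other V1 subunits did not pass. Atp6v1c1, the C subunit that helps to hold V1 on V0, differed by -0.27 with overlapping groups (limma adjusted p = 0.237). The subunits of the central and peripheral stalks and the regulatory H subunit had smaller estimates: Atp6v1d differed by 0.02, Atp6v1e1 by 0.13, Atp6v1f by -0.08, Atp6v1g1 by 0.04 and Atp6v1h by -0.05. The 95% confidence interval of Atp6v1e1 reached from -0.03 to 0.28 and that of Atp6v1f from -0.27 to 0.12, so decreases as large as the estimates for Atp6v1a and Atp6v1b2 lay outside both intervals. The second probe sets of Atp6v1f and Atp6v1g1 gave -0.02 and 0.09. Whether the A and B subunits differed from the stalk subunits was not tested.

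In the V0 domain the size of the difference varied widely between subunits. Atp6v0d2, the d subunit isoform known from osteoclasts and macrophages, measured 11.54, 11.68, 9.67 and 11.00 in wild-type and 9.10, 9.25, 8.81 and 6.53 in transgenic fat. The groups did not overlap, but wild-type replicate 3 and transgenic replicate 4 lay far below the other arrays of their groups. The difference was -2.55 (SE 0.67, 95% confidence interval -4.09 to -1.01), or 5.86-fold, and did not pass (limma adjusted p = 0.0808). It was -1.92 without transgenic replicate 4 and -2.98 without wild-type replicate 3, where it passed (adjusted p = 0.0400). That removal takes out the lowest wild-type value and was bound to widen the difference. Atp6v0d1, the d isoform found in most cells, was 10.37 to 10.50 in wild-type and 10.22 to 10.46 in transgenic fat, with overlapping groups and a difference of -0.06 (95% confidence interval -0.22 to 0.09).

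Atp6v0a1, an isoform of the a subunit that carries the proton path, measured 11.72, 11.85, 11.51 and 11.62 in wild-type and 11.31, 11.08, 11.38 and 11.21 in transgenic fat. The groups did not overlap, and the difference of -0.43 (SE 0.09) lay just outside the threshold (limma adjusted p = 0.0507). The difference of Atp6v0a1 passed in the second quantile normalization (limma adjusted p = 0.0471), with a filter on dim genes (0.0375), with another variance prior (0.0301) and without wild-type replicate 3 (0.0274). That removal takes out its lowest wild-type value and was bound to widen the difference. Atp6v0a1 did not pass in the other alternatives run at the same threshold (up to 0.588). Atp6v0b, a proteolipid of the ring, differed by -0.22 (limma adjusted p = 0.234), and the small e subunit Atp6v0e by 0.07 (95% confidence interval -0.06 to 0.19). The accessory proteins were lower in estimate: Atp6ap1, also called Ac45, differed by -0.27 with groups that did not overlap (limma adjusted p = 0.0905) and Atp6ap2, the (pro)renin receptor, by -0.20 with groups that overlapped (adjusted p = 0.291).

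**Figure D2:**
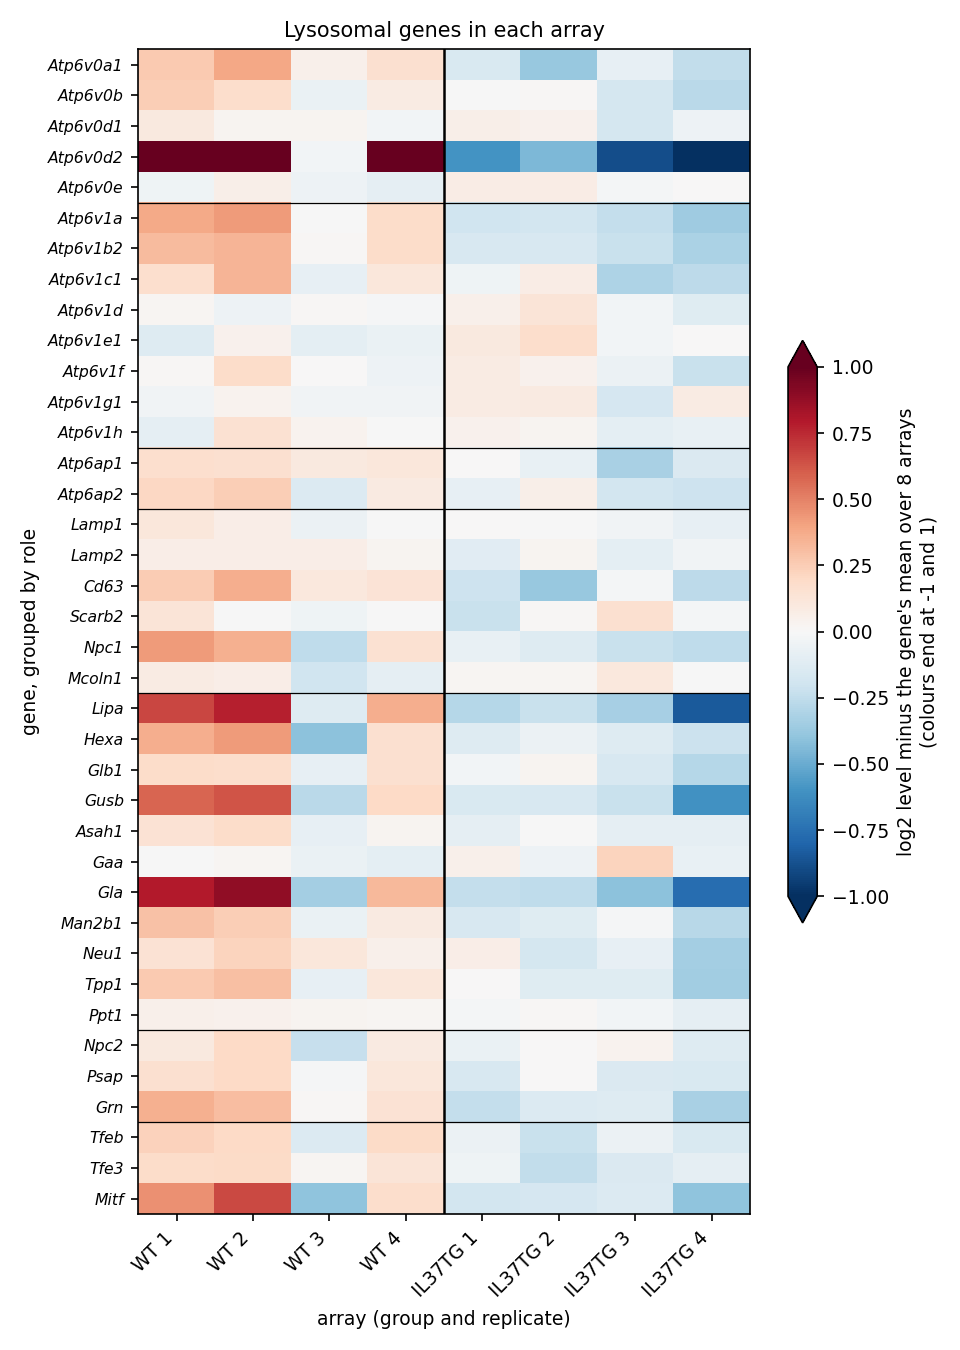
Level of each of the 38 genes in each array as the log2 distance from that gene's mean over the 8 arrays, with genes in rows by role and arrays in columns; colours end at -1 and 1, which Atp6v0d2 exceeds. The columns of wild-type replicates 1, 2 and 4 are mostly red, wild-type replicate 3 is pale or blue in many rows, and the transgenic columns are mostly blue.

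Isoforms of the same subunit were read side by side with 8 measured genes of a list of other pump isoforms. Of these 8, 1 rose and 0 fell, where 2.07% and 1.27% of all genes did. Atp6v0e2, the other e isoform, measured 7.80, 8.26, 8.26 and 8.19 in wild-type and 9.07, 9.19, 8.76 and 8.96 in transgenic fat. All transgenic arrays lay above all wild-type arrays (1.83-fold, difference 0.87, SE 0.13, limma adjusted p = 0.0181). The call was lost without wild-type replicate 4, transgenic replicate 1 or transgenic replicate 2, with adjusted p up to 0.0661. Tcirg1, which encodes the a3 isoform of osteoclasts and macrophages, differed by -0.78 with overlapping groups (limma adjusted p = 0.0985), and Atp6v0a2 by -0.08 (adjusted p = 0.480). These 2 genes were named after their values were seen, as isoforms of Atp6v0a1. The differences between isoforms were not tested.

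**Figure D3:**
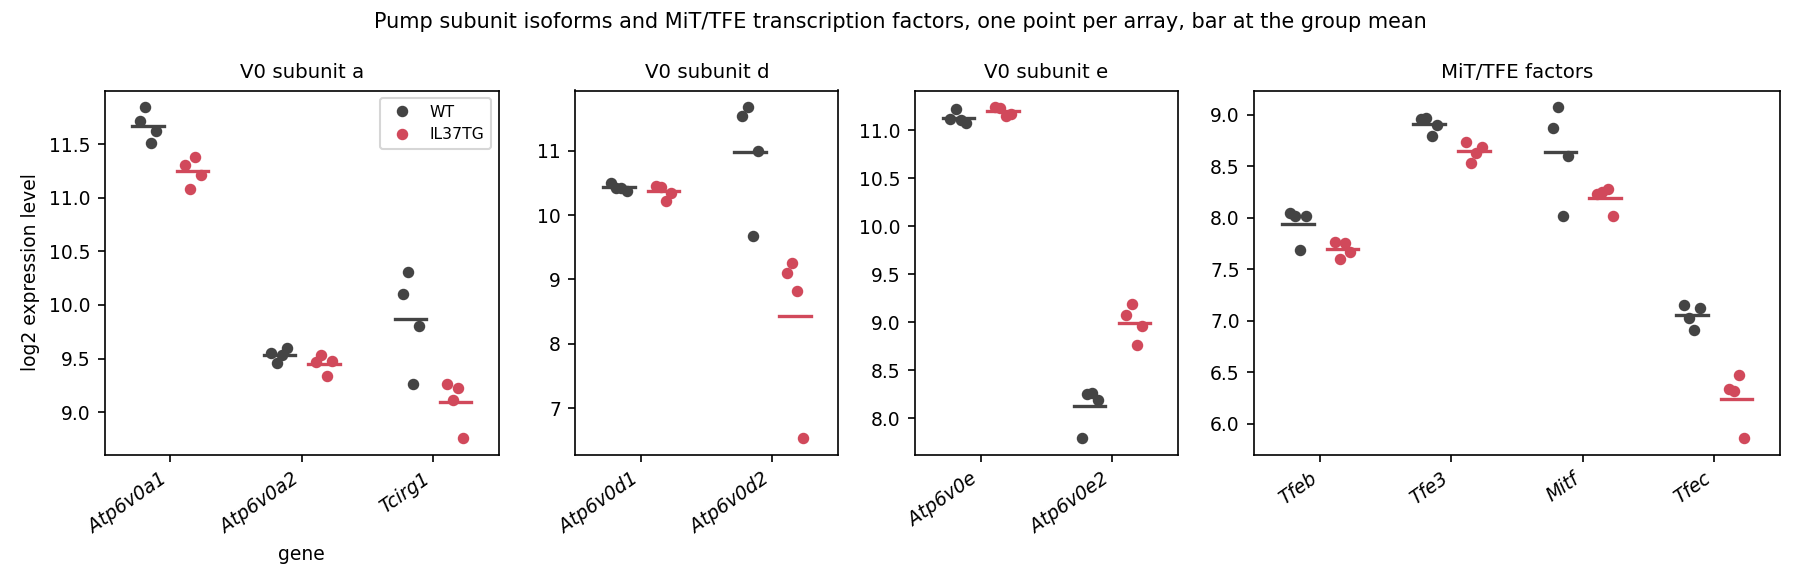
Log2 expression level of the isoforms of pump subunits a, d and e and of the MiT/TFE transcription factors, 1 point per array and a bar at the group mean (wild-type dark, transgenic red; each panel has its own vertical scale, and levels of different genes are not comparable). The arrays of Atp6v0d2 are widely spread and the groups do not overlap, those of Atp6v0d1 overlap, and Atp6v0e2 is higher and Tfec lower in all transgenic arrays than in all wild-type arrays.

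Among proteins of the lysosomal membrane, Cd63, a tetraspanin of late endosomes, lysosomes and exosomes, measured 10.82, 10.93, 10.67 and 10.71 in wild-type and 10.36, 10.19, 10.55 and 10.30 in transgenic fat. The groups did not overlap (difference -0.43, SE 0.09, limma adjusted p = 0.0486). Its call was lost on removal of any 1 array other than wild-type replicate 3 or transgenic replicate 3, with adjusted p up to 0.134, and in the second quantile normalization (adjusted p = 0.051). The abundant glycoproteins that line the membrane had small estimates: Lamp1 differed by -0.06 (95% confidence interval -0.19 to 0.07) and Lamp2 by -0.11 (-0.23 to 0.01). Npc1, which moves cholesterol out of the lysosome, measured 10.38, 10.31, 9.70 and 10.11 in wild-type and 9.88, 9.83, 9.74 and 9.70 in transgenic fat. Wild-type replicate 3 was level with the lowest transgenic array, and the difference of -0.34 did not pass (limma adjusted p = 0.227). Scarb2, the carrier of glucocerebrosidase to the lysosome, differed by -0.04 and Mcoln1, a calcium channel of the membrane, by 0.07.

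0 of the 11 hydrolases passed the test, and 10 of 11 had a difference below 0. Their median was -0.26 and their range -0.84 to 0.07. Over all genes tested, 1.27% fell and 44.7% had a difference below 0. Lipa, the acid lipase that frees fatty acids and cholesterol from lipids taken up by the cell, measured 11.51, 11.62, 10.72 and 11.21 in wild-type and 10.56, 10.62, 10.51 and 10.01 in transgenic fat. The groups did not overlap, although wild-type replicate 3 lay close to the transgenic arrays (difference -0.84, SE 0.21, limma adjusted p = 0.0750). Gla, the galactosidase missing in Fabry disease, read 8.84, 8.93, 7.70 and 8.37 against 7.80, 7.79, 7.63 and 7.28. Here wild-type replicate 3 fell among the transgenic values (difference -0.83, SE 0.26, limma adjusted p = 0.127). Gusb, the glucuronidase, differed by -0.57 (adjusted p = 0.164) with the same overlap. Hexa, a chain of hexosaminidase that degrades gangliosides, differed by -0.26 (adjusted p = 0.423), and wild-type replicate 3 (10.01) lay below all its transgenic arrays (10.21 to 10.37). Without wild-type replicate 3, Lipa (-1.02), Gla (-1.09), Gusb (-0.76) and Hexa (-0.45) passed, a widening fixed by removal of the lowest wild-type value.

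The groups of the remaining hydrolases overlapped, except those of Ppt1. Tpp1, a peptidase, differed by -0.29, Man2b1, a mannosidase, by -0.28, Neu1, a sialidase, by -0.26, Glb1, the galactosidase behind the senescence stain, by -0.22 and Asah1, acid ceramidase, by -0.14. Ppt1, the thioesterase that removes palmitate from proteins, measured 10.59 to 10.62 in wild-type and 10.48 to 10.58 in transgenic fat, a full separation of only -0.07 (limma adjusted p = 0.473). Gaa, which breaks down glycogen, was the single hydrolase with a difference above 0 (0.07, 95% confidence interval -0.10 to 0.25). Of the lumenal cofactors and carriers, Grn, which is cleaved to granulins in the lysosome, measured 11.89, 11.85, 11.55 and 11.68 in wild-type and 11.30, 11.40, 11.41 and 11.21 in transgenic fat. It separated fully (difference -0.41, SE 0.09, limma adjusted p = 0.0486), and the call was lost on removal of any 1 array other than wild-type replicate 3 (adjusted p up to 0.129). Psap, the precursor of the saposins that present lipids to hydrolases, differed by -0.23 (adjusted p = 0.101) and Npc2, the soluble partner of Npc1, by -0.08 (adjusted p = 0.684).

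Pump subunits and the hydrolases and membrane proteins were then set side by side. The 15 pump genes had a median difference of -0.20, with 2 falling and 11 below 0. The 17 hydrolases and membrane proteins had a median of -0.26, with 1 falling and 15 below 0. Over all genes tested, 1.27% fell and 44.7% were below 0. The array mean of the 15 pump genes was 10.18 to 10.49 in wild-type and 9.84 to 10.16 in transgenic fat, without overlap. Atp6v0d2, which had the largest difference, was then left out with its values known. Without it the pump median was -0.14. The array mean of the 14 pump genes left was 10.21 to 10.41 in wild-type and 10.07 to 10.22 in transgenic fat, with wild-type replicate 3 (10.21) just below transgenic replicates 1 and 2 (both 10.22). The mean of the 11 hydrolases was 9.65 to 10.13 in wild-type and 9.42 to 9.69 in transgenic fat, again with wild-type replicate 3 among the transgenic arrays. No test was made of the difference between these roles.

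**Figure D4:**
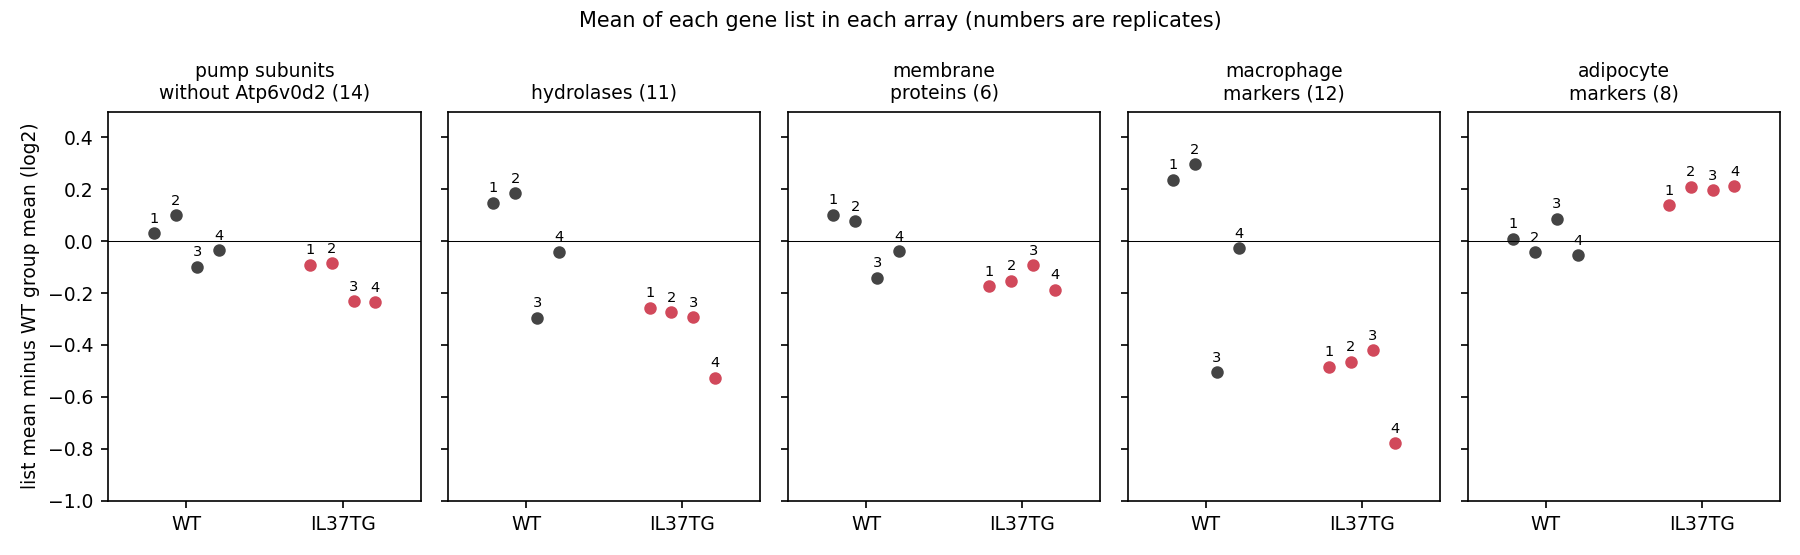
Mean log2 level of 3 lysosomal gene groups and of the macrophage and adipocyte marker lists in each array, given as the distance from the wild-type group mean. The pump group is without Atp6v0d2. The number beside each point is the replicate. Wild-type replicate 3 is the lowest wild-type point for the pump, hydrolase, membrane protein and macrophage lists and the highest for the adipocyte list.

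Macrophage markers moved with these results, with list means that overlapped between the groups. The adipocyte list moved the other way, at 11.87 to 12.01 in wild-type and 12.06 to 12.14 in transgenic arrays, without overlap. Of its 8 measured markers, Adipoq and Slc2a4 rose (limma adjusted p = 0.0309 and 0.0188), where 2.07% of all genes did. The part of either list in the results was not tested. Values for each array are in the plot of list means. The name of each array also holds a letter and a number that the labels leave undefined, and both were used to split the arrays. Number 5 holds wild-type replicate 3 and transgenic replicate 2, whose macrophage means were 9.29 and 9.33. The pair was not alike in other markers: the B cell list mean was 7.49 in wild-type replicate 3, against 5.95 to 6.32 in the other wild-type arrays and 6.49 in transgenic replicate 2, and the T cell list mean was 6.91 against 6.45 in the pair. A high B cell list mean was not limited to wild-type replicate 3, since transgenic replicate 3, outside the pair, had 7.28. In that pair 16 of 38 lysosomal genes were lower in the transgenic array, with a median difference of 0.03, where 37.8% of all genes were lower and the median of all genes was 0.06. In the same pair Cd63 differed by -0.48, Atp6v0a1 by -0.43, Atp6v0d2 by -0.42, Atp6v1a by -0.18, Atp6v1b2 by -0.17 and Grn by -0.15. These genes were picked with their results over all arrays known, this pair included. Of the genes that were higher in the transgenic array, Hexa (0.36) and Atp6v1e1 (0.28) differed most. These values rest on 1 array a group. Number 7 holds wild-type replicates 1 and 4 and transgenic replicate 3, and number 9 holds wild-type replicate 2 and transgenic replicates 1 and 4. There 33 and 35 of 38 genes were lower, where 48.3% and 49.6% of all genes were, with medians of -0.28 and -0.32, and the macrophage list mean differed by -0.53 and -0.93. Letter G, the only letter with both groups (wild-type replicates 3 and 4 and transgenic replicate 1), had 26 of 38 genes lower, where 42% of all genes were, with a median of -0.06 against 0.04 for all genes. With the number as a block the differences of Atp6v1a (-0.49), Atp6v1b2 (-0.43), Cd63 (-0.43) and Grn (-0.39) stayed close to those without it, but none passed (limma adjusted p 0.102 to 0.142). With the letter as a block the differences of Atp6v1a (-0.30), Atp6v1b2 (-0.26), Cd63 (-0.33) and Grn (-0.32) were smaller and none passed (limma adjusted p 0.418 to 0.502).

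The transcription factors were all lower in estimate, and 0 of 3 passed, where 1.27% of all genes fell. Tfe3 measured 8.96, 8.97, 8.79 and 8.90 in wild-type and 8.73, 8.53, 8.63 and 8.69 in transgenic fat, a full separation (difference -0.26, SE 0.07, limma adjusted p = 0.0750). Tfeb differed by -0.24 (adjusted p = 0.183) and Mitf by -0.45 (adjusted p = 0.271), both with wild-type replicate 3 inside the transgenic range. A second probe set of Mitf, at a mean of only 3.63, gave -0.36. The remaining member of the family, Tfec, which is known from macrophages and osteoclasts, was read from the list of other pathway genes. It measured 7.16, 7.03, 6.91 and 7.13 in wild-type and 6.33, 6.31, 6.47 and 5.86 in transgenic fat, and it fell (difference -0.81, SE 0.13, limma adjusted p = 0.0212). That call was lost on removal of wild-type replicate 1, 2 or 4 or transgenic replicate 1 or 2 (adjusted p up to 0.0811).

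Promoters of the genes were searched for the E-box that MiT/TFE factors bind, because the genes were mostly lower together. RefSeq promoters of build GRCm38.p6, each from 250 bases before to 50 bases after the annotated start, were found for 32 of the 39 genes, with 40 promoters in all. The letters TCACGTG, on either strand, were in the promoters of 9 of these 32 genes, or 28.1%, and in those of 4.29% of all 27025 genes in the table. The shorter CACGTG, which lies inside it, was found in those 9 genes and in 8.09% of all genes. The longer palindrome, CACGTG with GT before it and AC after it, was in 0 of the 32 genes and in 0.37% of all genes. The matches are shown because they are in pump subunits, hydrolases and membrane proteins alike, among genes with large and small differences. They are given on the gene's strand, 5′ to 3′, with TCACGTG and its reverse complement in capitals, including stretches where both overlap.
Atp6v1a (chr16:44139369-44139406, minus strand): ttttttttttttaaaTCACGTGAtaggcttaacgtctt
Atp6v0b (chr4:117887330-117887381, minus strand): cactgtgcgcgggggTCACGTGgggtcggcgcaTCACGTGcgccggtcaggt
Atp6v0d1 (chr8:105566050-105566079, minus strand): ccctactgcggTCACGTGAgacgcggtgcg
Atp6v0e (chr17:26676387-26676416, plus strand): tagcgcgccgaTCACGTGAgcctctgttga
Gla (chrX:134601178-134601248, minus strand): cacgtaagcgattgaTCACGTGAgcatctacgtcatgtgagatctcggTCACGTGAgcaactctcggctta
Glb1 (chr9:114401014-114401050, plus strand): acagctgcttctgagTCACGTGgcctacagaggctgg
Gaa (chr11:119267807-119267843, plus strand): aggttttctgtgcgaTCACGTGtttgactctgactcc
Lamp1 (chr8:13159084-13159160, plus strand): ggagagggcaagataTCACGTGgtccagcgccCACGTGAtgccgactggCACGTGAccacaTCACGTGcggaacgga
Mcoln1 (chr8:3500432-3500495, plus strand): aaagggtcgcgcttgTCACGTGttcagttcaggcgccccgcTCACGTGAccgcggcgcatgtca

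Lamp1 held 4 marked stretches, all within 62 bases before its start, and Gla, Atp6v0b and Mcoln1 held 2 each. The match of Atp6v1a began 132 bases before the start and that of Gaa 141 bases before it, while that of Atp6v0d1 spanned the start and that of Atp6v0e lay just after it. Differences of the 9 genes with a match ran from -0.83 (Gla) to 0.07 (Gaa and Mcoln1), with a median of -0.06, and 1 of them, Atp6v1a, fell. The 22 measured genes whose promoters held no match had a median of -0.26, and 2 of them fell. Over all genes tested, 1.27% fell and the median was 0.02. Lamp1, with the most stretches, differed by -0.06. Of the genes with 2, Gla differed by -0.83, Atp6v0b by -0.22 and Mcoln1 by 0.07. The other 7 genes of the list, among them Atp6v1b2 and Atp6v0d2, had no promoter in the set searched. Whether matches and differences are related was not tested. A match describes letters in this window and not binding.

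Beyond the list, 72 other genes of the pathway were measured, of which 8 fell and 1, Atp6v0e2, rose, or 11.1% and 1.39%, where 1.27% and 2.07% of all genes did. Their median difference was -0.10. The list of these genes was written with earlier results of these data known, so its shares are not independent of them. Of 18 other lysosomal hydrolases and activators, 4 fell. Manba, which cleaves mannose from glycan cores, measured 8.50, 8.43, 8.50 and 8.60 in wild-type and 8.04, 8.15, 7.99 and 7.86 in transgenic fat. Here wild-type replicate 3 lay with the other wild-type arrays (difference -0.49, SE 0.07, limma adjusted p = 0.0180), and the call was lost without wild-type replicate 1 or 4 only (adjusted p up to 0.0692). Lgmn, the asparaginyl endopeptidase legumain, fell by 0.80 log2 units (adjusted p = 0.0486), Pla2g15, a lysosomal phospholipase, by 0.58 (adjusted p = 0.0446) and Galns, a sulfatase of keratan sulfate, by 0.27 (adjusted p = 0.0454). These 3 calls were each lost on removal of any 1 array other than wild-type replicate 3, with adjusted p up to 0.136, 0.129 and 0.129.

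Of 16 other membrane proteins, Slc17a5, the sialic acid exporter, fell (difference -0.36, SE 0.07, limma adjusted p = 0.0347), at 10.02 to 10.11 in wild-type and 9.57 to 9.84 in transgenic fat. Of 7 genes for assembly and regulation of the pump, Wdr7, a partner of the V-ATPase regulator rabconnectin, fell (difference -0.26, SE 0.06, limma adjusted p = 0.0486). Of 15 genes for mTORC1 at the lysosome and MiT/TFE control, Tfec and Rragd, a Rag GTPase that recruits mTORC1 and TFEB to the lysosome, fell. Rragd measured 5.02, 5.12, 5.82 and 5.17 in wild-type and 4.51, 4.36, 4.37 and 4.44 in transgenic fat (limma adjusted p = 0.0351). Its transgenic mean of 4.42 was under the 25th percentile of gene means (4.49), where array signals compress, so no size of the difference is given. Removal of single arrays ended the calls of Wdr7 and Rragd for 7 arrays and that of Slc17a5 for 6, with adjusted p up to 0.132, 0.0981 and 0.110; all 3 passed without wild-type replicate 3. Of 8 genes for mannose-6-phosphate tagging and other sorting routes 0 passed in either direction, where 1.27% of all genes fell and 2.07% rose. The lowest p was that of Sort1, the sorting receptor sortilin of glucose transporter vesicles. All its transgenic arrays lay above all wild-type arrays (difference 0.26, limma adjusted p = 0.0644).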

How the data were processed

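The deposited values were log2 levels of probe sets on single-colour arrays of biotin-labelled whole-transcript cDNA; the authors made them with RMA (background correction, quantile normalization and summary of probes), per the submitters' processing notes. The sources used here give neither its version nor its settings. Quantile normalization hides a shift shared by most genes, and probe sets near background understate differences. The number of arrays limits the precision.

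Of 35556 probe sets, 21218 had 1 symbol, 1881 several and 12457 none in the annotation used. 21185 were matched by Entrez identifier to the RefSeq gene table of GRCm38.p6. Keeping 1 probe set a gene, that of highest mean, left 18820 genes. The 4 transgenic and 4 wild-type arrays entered 1 fit of limma 3.58.1 under R 4.3.3 (lmFit, then eBayes; two-sided tests on every gene, adjusted over all genes by Benjamini-Hochberg, threshold 0.05); a negative difference means lower in transgenic fat. The limma fit was tested on simulated data with independent noise in each gene. Those data held no shift shared by the genes of an array, so they do not show how such a shift affects the calls. Members, pathway and marker lists, groups and alternatives were chosen with earlier results of these data known. The named genes were all members, pathway genes past the threshold or with the lowest p of their sub-list, markers past the threshold, and Adgre1, Csf1r, Trem2 and Adipoq. Other marker lists (fibroblast, endothelial, T cell, B cell, mast cell and mesothelial) had 0 genes past the threshold; Adipoq and Slc2a4 rose among adipocyte markers. Alternatives were a second quantile normalization, centring, a filter on dim genes, the mean of a gene's probe sets, another variance prior, 3 kinds of block, removal of arrays and another threshold. Figures were drawn with matplotlib 3.10.9.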

Additional observations from a re-analysis of the deposited data

Results flagged for a closer look

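Of 110 groups of 4 arrays examined over the named genes, 12 had 1 array far from the other 3 (10.9%), where chance gives about 1 in 20. Transgenic replicate 4 lay below the other transgenic arrays for Atp6v0d2 (6.53 against 8.81 to 9.25), Gusb (8.37 against 8.76 to 8.83) and Adgre1 (9.31 against 9.76 to 9.81). Wild-type replicate 3 lay below the other wild-type arrays for Glb1 (8.94 against 9.18 to 9.21), Tfeb (7.68 against 8.01 to 8.05) and Pla2g15 (9.43 against 9.85 to 9.91). Transgenic replicate 2 lay above the others for Asah1 (10.81) and Psap (12.45). Wild-type replicate 2 was high (9.12) and transgenic replicate 3 low (8.92) for Atp6v1g1, wild-type replicate 4 was low for Lamp2 (11.49) and wild-type replicate 1 was low for Atp6v0e2 (7.80). All values are log2 levels.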

How the results depend on the processing

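The direction of the median difference held for all members, pump genes, and hydrolases with membrane proteins in all alternatives run, but with the letter of the array name as a block the medians shrank to -0.060, -0.0087 and -0.060. Leaving out 1 array in turn, they ran from -0.28 to -0.20, from -0.28 to -0.16 and from -0.28 to -0.19. Counts depended on the setting, and the causes were not tested. The 4 members called lower became 0 after centring, 0 with the replicate number as a block, 0 with the letter and 0 with the number of the array name as a block, 9 at a threshold of 0.1, and 0 to 14 on leaving out 1 array; they became 5 with the filter on dim genes and with the other variance prior, both adding Atp6v0a1. In the second quantile normalization 4 passed, with Atp6v0a1 in place of Cd63. 0 were higher in any of these. Taking out both wild-type replicate 3 and transgenic replicate 4, chosen after seeing the data, gave 10. For the other pathway genes, the 8 lower became 3 after centring, 0 with the replicate block, 1 with the letter, 0 with the number, 15 at 0.1, 15 without those 2 arrays and 0 to 18 without 1 array. The 1 higher became 2 with the filter on dim genes, 2 with the other variance prior, 0 with each of the 3 blocks, 3 at 0.1 and 0 to 2 without 1 array. Over all genes, 390 higher and 239 lower became 40 and 53 with the replicate block, 10 and 60 with the letter, 44 and 28 with the number, 857 and 680 at 0.1, and 50 to 520 and 32 to 668 without 1 array; 491 were lower without those 2 arrays. Of these removals of 1 array, the highest counts came without wild-type replicate 3. Sign changes occurred in genes that had not passed: with the letter as a block Atp6v0d1 (0.059), Atp6v1f (0.10), Atp6v1h (0.030), Lamp1 (0.038), Hexa (0.00016) and Npc2 (0.0043), and with the number Scarb2 (0.0094). Without 1 array, Scarb2 ran from -0.095 to 0.032, above 0 without wild-type replicate 1 (0.00018) or transgenic replicate 1, and Atp6v1d from -0.023 to 0.060, below 0 without transgenic replicate 2. Same-numbered arrays deviated together only weakly (correlations 0.057 to 0.102). The labels do not say whether they share more than a number, and this was not tested. The replicate block left the differences of the 4 called members unchanged and raised their adjusted p.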

Other observations

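Mcoln3, a calcium channel of endosomes and lysosomes related to Mcoln1, was named after its values were seen. It measured 4.31, 4.54, 6.77 and 6.05 in wild-type and 4.20, 4.14, 4.10 and 4.14 in transgenic fat. Wild-type replicates 3 and 4 were high, and the other 6 arrays lay near the 25th percentile of gene means (4.49), so no size of the difference is given (limma adjusted p = 0.207). The epididymal marker Adam7 was also highest in those 2 arrays. Wild-type replicate 3, which had the lowest wild-type macrophage mean, had the highest level of Mcoln3 and of Rragd (5.82).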
